A study of Mus musculus with 12 samples.

Results

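The genes described here are 5 genes of hemoglobin production: the adult alpha globin genes Hba-a1 and Hba-a2, the adult beta globin genes Hbb-bs and Hbb-bt, and Alas2, the erythroid form of the enzyme that starts heme synthesis. They were chosen by name from the 55421 genes listed in the count table, of which 38950 had at least 1 count, and all 5 passed the filter on low counts. Their levels were compared across the prelimbic (PL) and infralimbic (IL) parts of the prefrontal cortex after dexmedetomidine or saline.

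The tissue came from male C57BL/6 mice aged 10 to 12 weeks, for which the labels name no mutation or transgene. All mice had been fear conditioned with 3 tones that each ended in a foot shock (0.7 mA), and mice that froze for less than 50% of the last tone were left out. Dexmedetomidine (Dex), a sedative agonist of alpha2 adrenergic receptors, was injected into the peritoneum at 40 µg per kg, in a volume of 10 ml per kg. The other mice received saline in the same volume, and tissue was taken 2 h after training. The groups are PL Dex, PL saline, IL Dex and IL saline, with 3 polyA RNA-seq libraries each, numbered 1 to 3, and this number is also the batch number in the labels. There was no group without shocks, so training is shared by all 4 groups. The titles name PL or IL cortex, whereas the extraction protocol names PL tissue for every sample; the titles were followed. Whether the 3 libraries of one group stem from separate mice is not stated, so each p-value reflects only the spread among these libraries, which may be technical.

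Adult hemoglobin joins a pair of alpha chains and a pair of beta chains, each holding a heme. Its messenger RNA is made in erythroid precursors of the bone marrow and spleen and is still carried by young red cells in the blood. Globin transcripts in brain tissue are known chiefly from blood in its vessels, and low expression in neurons and glia has also been described. In mice of the C57BL/6 type, the alpha genes are copies with near-identical coding sequences, and so are the beta genes. Before birth, the yolk sac makes other chains, from Hba-x, Hbb-bh1 and Hbb-y. In bulk tissue, fewer cells of a type and less RNA per cell cannot be told apart.

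Library totals ran from 6853832 to 7912150 counts in PL Dex, from 6867249 to 8847876 in PL saline, from 5419187 to 10874464 in IL Dex and from 10603069 to 16530596 in IL saline. Levels are given as CPM, each library's count per 1000000 counts, on library sizes scaled by the TMM method. Neuron markers were abundant in every library, with Camk2a at a mean of 2255 CPM and Snap25 at 1546 CPM. Before any comparison, 3 libraries stood apart in one respect: PL Dex 3, PL saline 3 and IL saline 1 held counts of all 3 embryonic globin genes, and the other 9 libraries held none. Those values are given below, with each comparison's count of genes that passed without these libraries.

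In their coding sequences the copies differ by few bases, and these bases matter for how a count is assigned to one copy. The coding sequences of Hba-a1 and Hba-a2, on chromosome 11, hold 426 bases with 1 difference, C381T, and those of Hbb-bs and Hbb-bt, on chromosome 7, hold 441 bases with 1 difference, C417T. Positions are counted from the A of the start codon, with the base of the first-named copy first. The stretches around both differences are shown because a read that covers neither the difference nor an end of the transcript cannot be placed in one copy. The differing base is in capitals, in coding bases 366 to 396 of the alpha genes and 402 to 432 of the beta genes (GRCm38 annotation, 5′ to 3′ on the coding strand).
Hba-a1: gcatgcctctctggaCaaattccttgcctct
Hba-a2: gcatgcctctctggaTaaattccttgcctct
Hbb-bs: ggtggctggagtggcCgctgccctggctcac
Hbb-bt: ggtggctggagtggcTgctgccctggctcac

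Of all 100-base windows of their transcripts, 63.3% of those of Hba-a1 and 79.5% of those of Hba-a2 occurred in the other alpha gene. For the beta genes the shares were 49.7% in Hbb-bs and 54.8% in Hbb-bt. In Alas2, 8.88% of the windows occurred in another gene, Apex2, which overlaps Alas2 on the opposite strand along 311 of its 2403 exon bases. The counts carry no strand, so reads of that overlap cannot be told apart. The level of each globin copy is therefore uncertain, and the sum of both copies is given beside it where it matters. Reads that fit both copies may have been left out of the counts, which would lower the sum too, and more so for the alpha genes. Orders of level between the genes are uncertain for the same reason.

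Stretches before the RefSeq starts of the genes are shown because the globin genes are compared as genes that may move together. They are the parts of RefSeq's 300-base start-site windows (GRCm38.p6) that lie outside annotated exons, 5′ to 3′ on the gene's own strand. Capitals mark exact matches on either strand to GATAA, to CACCC, to TATAA and to CCAAT. The stretch of Hba-a2 lies at chr11:32296242-32296488 on the plus strand. That of Hbb-bs lies at chr7:103827929-103828011 and that of Hbb-bt at chr7:103813997-103814173, both on the minus strand. The Hbb-bs stretch is inside that gene's span in the count annotation, 103826534 to 103828096, but outside its exons. The stretches, of 83 bases in Hbb-bs to 247 bases in Hba-a2, are thus different parts of the windows. Marked matches in them are not compared between genes. That of Alas2 lies at chrX:150547167-150547374 on the plus strand.
Hba-a2: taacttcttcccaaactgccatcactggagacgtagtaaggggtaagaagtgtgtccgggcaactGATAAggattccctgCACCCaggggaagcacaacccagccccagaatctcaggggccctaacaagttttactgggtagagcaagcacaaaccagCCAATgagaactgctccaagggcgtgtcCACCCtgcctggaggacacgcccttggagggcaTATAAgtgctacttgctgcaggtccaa
Hbb-bs: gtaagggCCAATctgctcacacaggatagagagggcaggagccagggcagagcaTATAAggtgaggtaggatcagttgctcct
Hbb-bt: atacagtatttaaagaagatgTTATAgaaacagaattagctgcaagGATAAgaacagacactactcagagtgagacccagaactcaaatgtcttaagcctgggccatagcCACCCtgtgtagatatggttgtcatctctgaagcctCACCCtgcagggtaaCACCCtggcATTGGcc
Alas2: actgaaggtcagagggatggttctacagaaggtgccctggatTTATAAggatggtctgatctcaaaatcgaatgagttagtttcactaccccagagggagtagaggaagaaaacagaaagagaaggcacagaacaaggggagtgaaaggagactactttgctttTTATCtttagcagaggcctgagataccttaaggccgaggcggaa

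The windows of Hba-a1 and Hba-a2 were identical in all 297 bases that could be aligned, so the Hba-a1 stretch is not repeated. In Alas2, the run TTATAA holds a match to TATAA on each strand, and these overlap. The full windows of all 5 genes held GATAA, which stood in 25.4% of 32851 start-site windows, CACCC (57.5% of windows) and TATAA (24.9%). CCAAT (37.4%) stood in the windows of the 4 globin genes and not in that of Alas2. A match is a run of letters, not a shown binding site.

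Hbb-bs was the most abundant of the 5 genes. Its level was 37.0, 23.3 and 35.8 CPM in PL Dex libraries 1 to 3, against 27.2, 68.0 and 30.2 CPM in PL saline. It was 54.3, 84.6 and 58.8 CPM in IL Dex, against 42.9, 49.1 and 42.4 CPM in IL saline. All IL Dex libraries were above all IL saline and all PL Dex libraries, and the PL groups overlapped, with PL saline library 2 far above the others.

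Hbb-bt, the minor beta copy, was at 1.63, 0.578 and 3.11 CPM in PL Dex, against 1.21, 7.59 and 3.73 CPM in PL saline. It was at 1.78, 10.3 and 3.77 CPM in IL Dex, against 2.24, 3.58 and 3.08 CPM in IL saline. Its groups overlapped in every comparison, and its highest and lowest values, 17.8-fold apart, were both in libraries numbered 2. The lowest of these values rests on 4 counts.

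Hba-a1, the major alpha copy here, was at 5.83, 7.81 and 8.64 CPM in PL Dex, against 6.20, 8.64 and 5.78 CPM in PL saline. It was at 9.76, 37.1 and 11.9 CPM in IL Dex, against 10.2, 8.75 and 10.7 CPM in IL saline. One library, IL Dex 2, was above every other library. Every PL library was below every IL library, though narrowly, at up to 8.64 CPM in PL and from 8.75 CPM in IL. The share of all genes that separate in this way over the 12 libraries is not reported here.

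Hba-a2 was at 2.98, 3.18 and 2.97 CPM in PL Dex, against 2.12, 4.08 and 2.29 CPM in PL saline. It was at 6.75, 3.89 and 6.71 CPM in IL Dex, against 3.50, 5.17 and 5.81 CPM in IL saline. In IL Dex 2, where Hba-a1 was highest, Hba-a2 was the lowest of its group.

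Alas2 was at 13.8, 14.0 and 11.6 CPM in PL Dex, against 14.8, 17.97 and 13.0 CPM in PL saline. It was at 16.0, 14.1 and 18.3 CPM in IL Dex, against 18.7, 14.8 and 16.1 CPM in IL saline. Alas2 varied least, with its highest library 1.61-fold above its lowest. Apex2, on the opposite strand, was at 23.0 to 49.7 CPM, and its part in the Alas2 counts was not tested.

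**Figure D1:**
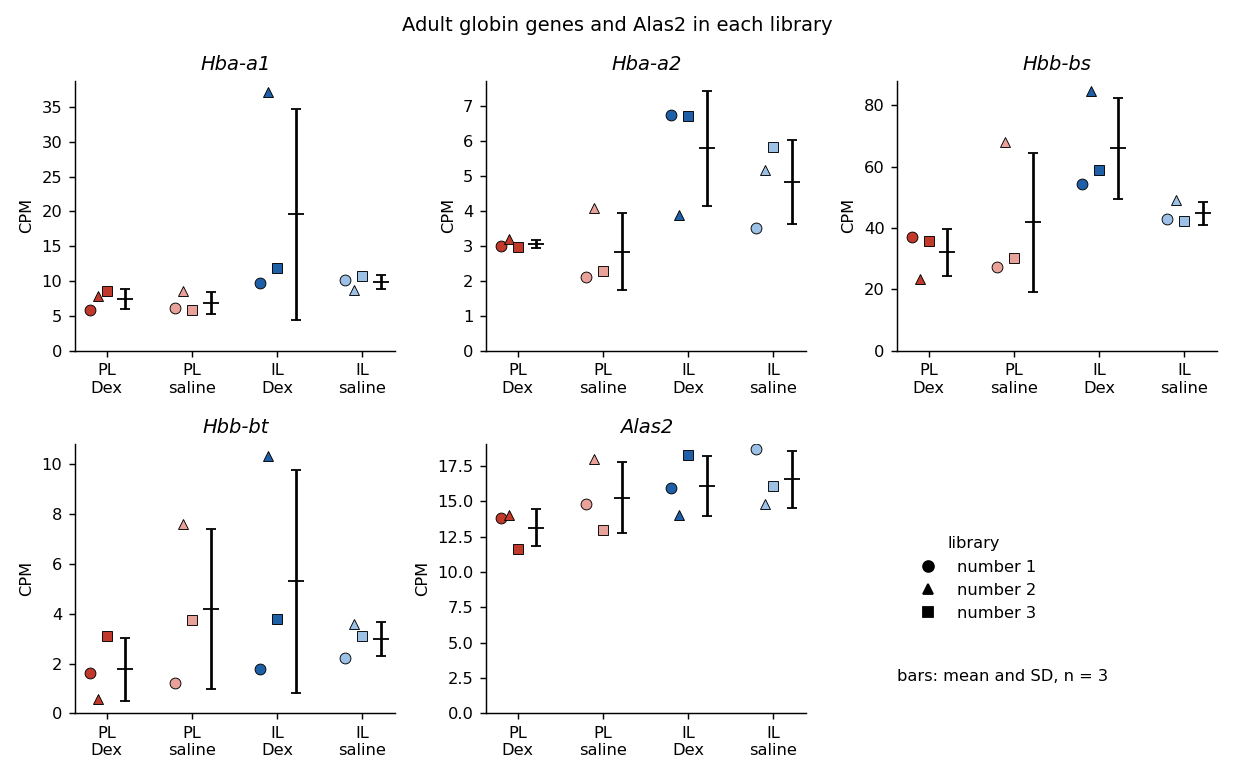
Level of each gene in CPM (vertical axis, from 0) in the 12 libraries, by group; point shapes give the library number, and bars the mean and SD of 3 libraries. Library 2 of IL Dex stands alone at 37.1 CPM for Hba-a1, while the Alas2 points lie between 11.6 and 18.7 CPM in all groups.

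Divided by exon length, the mean levels over 12 libraries were 60.1 ± 23.4 CPM per kb for Hbb-bs, 13.5 ± 10.4 for Hba-a1, 6.36 ± 0.919 for Alas2, 6.18 ± 2.43 for Hba-a2 and 5.05 ± 3.96 for Hbb-bt (SD, n = 12). Hbb-bs was above Hba-a1 in 12 of 12 libraries, and Hba-a1 was above Alas2 in 12 of 12. The last 3 genes did not separate: Alas2 was above Hba-a2 in 8 of 12 libraries, and Hba-a2 above Hbb-bt in 9 of 12. By mean CPM, Hbb-bs ranked 4832nd and Hbb-bt 14248th of the 20015 genes tested.

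The spread between libraries of one group differed between the genes. The coefficient of variation within groups was 68.4% for Hbb-bt, 41.9% for Hba-a1, 32.4% for Hbb-bs, 27.01% for Hba-a2 and 13.2% for Alas2. Counting alone would give 25.3% for Hbb-bt, 11.8% for Hba-a1, 5.51% for Hbb-bs, 18.6% for Hba-a2 and 9.02% for Alas2. In the edgeR fit, the biological coefficient of variation of Hbb-bt was 0.557, above that of 99.5% of the genes tested, and that of Hba-a1 was 0.333, above 93.5%. That of Alas2, 0.132, was below the median of all genes tested, 0.159.

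The summed level of the 4 globin genes was 47.4, 34.9 and 50.5 CPM in PL Dex, against 36.8, 88.4 and 42.0 CPM in PL saline. It was 72.6, 135.9 and 81.1 CPM in IL Dex, against 58.9, 66.6 and 62.0 CPM in IL saline. The group means were 44.3 ± 8.30 CPM in PL Dex, 55.7 ± 28.4 in PL saline, 96.6 ± 34.4 in IL Dex and 62.5 ± 3.87 in IL saline (SD, n = 3 each). All IL Dex libraries were above all IL saline libraries, and the PL groups overlapped. As a share of all counts, the 4 genes made up 0.00352% in PL Dex 2, the lowest library (95% interval 0.00309% to 0.00399%), and 0.0142% in IL Dex 2, the highest (0.0133% to 0.0151%). These intervals are exact Clopper-Pearson intervals and cover counting error only.

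Dex against saline in PL asked whether these genes had another level after the drug, in tissue taken 2 h after training. None of the 5 genes passed the threshold (FDR under 0.05, edgeR's quasi-likelihood test adjusted over the 20015 genes tested), where 0.02% of all genes tested passed. None had an unadjusted p under 0.05, against 13.9% of all genes, and the groups of none were without overlap, against 14.4% of all genes. DESeq2 called 0 of the 3 genes to which it gave an adjusted p, and 0.973% of all genes. The fitted log2 fold change, Dex over saline, was 0.11 ± 0.45 for Hba-a1, 0.09 ± 0.34 for Hba-a2, −0.39 ± 0.34 for Hbb-bs, −1.25 ± 0.73 for Hbb-bt and −0.22 ± 0.18 for Alas2 (± SE, FDR 0.465 to 0.938, edgeR). The 95% interval of Hbb-bt was the widest, from −2.84 to 0.34. That of Alas2 was the narrowest, from −0.59 to 0.15. The median of the 5 genes was −0.22, against −0.0025 over all genes tested. Without PL saline library 2 the log2 fold change was 0.16 for Hbb-bs and −0.50 for Hbb-bt, and the median was 0.16. That of Hbb-bt was −1.92 without PL Dex library 3. Within library numbers, the summed globin level was higher with Dex in 2 of 3 pairs, by 10.7 and 8.52 CPM, and lower in the pair numbered 2, with a difference of −53.5 CPM.

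In IL, the same question gave higher values in most of the genes, and again none passed the threshold. None of all genes tested passed it by edgeR or by DESeq2 (0% each). Of the 5 genes 1, Hba-a1, had an unadjusted p under 0.05, against 1.06% of all genes tested. The log2 fold change of Hba-a1 was 0.97 ± 0.39 (unadjusted p = 0.0283, FDR 1.00, edgeR), with a 95% interval from 0.12 to 1.83. Without IL Dex library 2 it was 0.14. The log2 fold changes were 0.26 ± 0.29 for Hba-a2, 0.56 ± 0.32 for Hbb-bs, 0.82 ± 0.64 for Hbb-bt and −0.03 ± 0.17 for Alas2. Without IL Dex library 2 that of Hbb-bt was −0.04, the other direction, and that of Hbb-bs 0.34. Hbb-bs was the one gene whose groups did not overlap, with means of 65.9 CPM in IL Dex and 44.8 CPM in IL saline; 7.78% of all genes tested did not overlap between these groups. The median of the 5 genes was 0.56, against 0.01 over all genes tested, and was 0.14 without IL Dex library 2. Within library numbers, the summed globin level was higher with Dex in 3 of 3 pairs, by 13.7, 69.3 and 19.1 CPM.

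The difference between the effects of Dex in PL and in IL was tested as an interaction. None of the 5 genes, and none of all genes tested (0%), passed the threshold by edgeR, and DESeq2 called 0. None of the 5 had an unadjusted p under 0.05, against 6.73% of all genes. The 5 differences, PL effect minus IL effect, were all negative, from −0.17 ± 0.45 for Hba-a2 to −2.07 ± 0.97 for Hbb-bt (log2, ± SE, FDR 0.716 to 0.940, edgeR). The interval of Hbb-bt was −4.19 to 0.05, and that of Hbb-bs, at −0.95 ± 0.47, was −1.99 to 0.09. The median was −0.87, against 0.00019 over all genes tested. Without IL Dex library 2 the difference was −0.03 for Hba-a1 and −1.21 for Hbb-bt. Without PL saline library 2 it was −0.40 for Hbb-bs, −1.32 for Hbb-bt and 0.21 for Hba-a2, which then had the other direction.

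The regions were then compared within each treatment. In saline mice, none of the 5 genes passed the threshold by edgeR, where 18.7% of all genes tested did, and DESeq2 called 0, against 20.2% of all genes. Hba-a2 had an unadjusted p under 0.05, as did 32.6% of all genes, with a log2 fold change, PL over IL, of −0.76 ± 0.31 (FDR 0.0932, edgeR). The log2 fold changes were −0.52 ± 0.42 for Hba-a1, −0.09 ± 0.33 for Hbb-bs, 0.51 ± 0.65 for Hbb-bt and −0.11 ± 0.17 for Alas2. Hba-a1 was the one gene whose groups did not overlap, with means of 6.87 CPM in PL saline and 9.90 CPM in IL saline, and 40.3% of all genes tested did not overlap. The median of the 5 genes was −0.11, against −0.02 over all genes tested, and was −0.64 without PL saline library 2. Without that library the log2 fold change was −0.64 for Hbb-bs and, in the other direction, −0.23 for Hbb-bt.

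In Dex mice, all 5 genes were lower in PL than in IL, and the call depended on the test. None passed the threshold by edgeR, where 7.34% of all genes tested did, and 3 had an unadjusted p under 0.05, against 19.8% of all genes. The log2 fold change, PL over IL, was −1.39 ± 0.42 for Hba-a1 (FDR 0.0695), −0.93 ± 0.32 for Hba-a2 (0.0898), −1.04 ± 0.34 for Hbb-bs (0.102), −1.56 ± 0.73 for Hbb-bt (0.261) and −0.30 ± 0.18 for Alas2 (0.375). The 95% intervals were −2.30 to −0.47 for Hba-a1, −1.60 to −0.26 for Hba-a2 and −1.78 to −0.29 for Hbb-bs. The groups did not overlap for 4 of the 5 genes, all but Hbb-bt, each time with PL lower; 10.8% of all genes tested were lower without overlap. For Alas2 the gap was narrow, at 14.0 CPM in the highest PL Dex library and 14.1 CPM in the lowest IL Dex library. The median was −1.04, against −0.01 over all genes tested.

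DESeq2 called 2 of these genes in Dex mice, Hba-a1 (adjusted p 0.00388) and Hbb-bs (adjusted p 0.0498), and 8.98% of all genes. With the library number as a block, Hba-a1 passed in edgeR, with a log2 fold change of −1.27 and an FDR of 0.0325, where 8.63% of all genes passed. With both alpha copies summed into one gene, their log2 fold change was −1.27 and passed (FDR 0.0118, edgeR; 7.36% of all genes passed). Without IL Dex library 2, the log2 fold change was −0.55 for Hba-a1 (FDR 0.275, edgeR) and −0.70 for Hbb-bt, and leaving out one library moved that of Hbb-bt over −2.22 to −0.70. Hba-a1 passed without IL Dex library 1 (FDR 0.00979) and without IL Dex library 3 (0.0269), and Hbb-bs passed without PL saline library 1 (0.0396) and without PL saline library 2 (0.00126, edgeR); the PL saline libraries enter this comparison only through the shared fit. The IL Dex values of this comparison are also those of Dex against saline in IL, so these comparisons share 3 libraries.

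**Figure D2:**
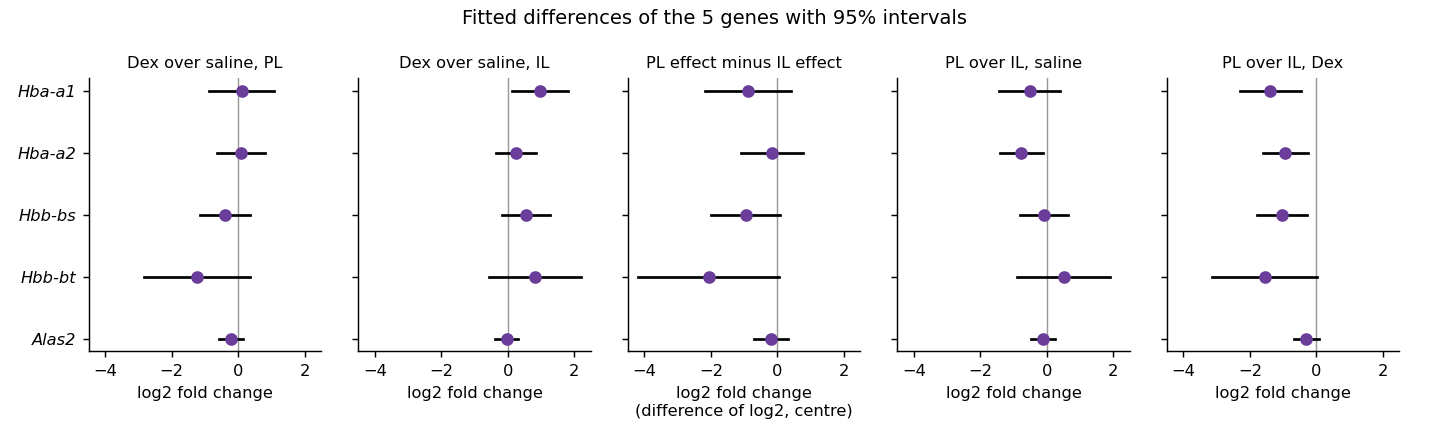
Fitted log2 fold changes of the 5 genes (points) with 95% intervals (lines) in 4 comparisons and, in the middle panel, the difference of the Dex effects between regions. In Dex mice, PL over IL, the points of all 5 genes lie below 0 and the intervals of Hba-a1, Hba-a2 and Hbb-bs do not reach it.

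Both alpha copies were read side by side, since most of their sequence is shared. The ratio of Hba-a1 to Hba-a2 counts was 1.95 to 2.91 in PL Dex, 2.11 to 2.93 in PL saline and 1.69 to 2.92 in IL saline. In IL Dex it was 1.45 and 1.77 in libraries 1 and 3 and 9.54 in library 2. The 37.1 CPM of Hba-a1 in that library thus came without a like level of its copy. The promoter windows of both copies are identical, and the one base that differs in the coding sequence is the C381T shown above.

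The beta copies were read the same way. The ratio of Hbb-bs to Hbb-bt counts was 11.5 to 40.3 in PL Dex, 8.10 to 22.5 in PL saline, 8.20 to 30.6 in IL Dex and 13.7 to 19.2 in IL saline. It was lowest in PL saline 3 (8.10), IL Dex 2 (8.20) and PL saline 2 (8.97), and the last 2 are the libraries with the most of both beta copies. The ratio of alpha to beta globin, per kb of exon, was 0.330 ± 0.119 in PL Dex, 0.232 ± 0.0612 in PL saline, 0.339 ± 0.0640 in IL Dex and 0.313 ± 0.0506 in IL saline (SD, n = 3 each). The PL saline libraries, up to 0.291, lay below those of IL Dex, from 0.301, and every other pair of groups overlapped. The ratio was below 1 in every library, at 0.169 to 0.462. Of 100-base windows, the alpha copies share more (63.3% and 79.5%) than the beta copies (49.7% and 54.8%). Reads that fit both copies may be missing from the counts, so the level of this ratio is uncertain and may be too low.

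**Figure D3:**
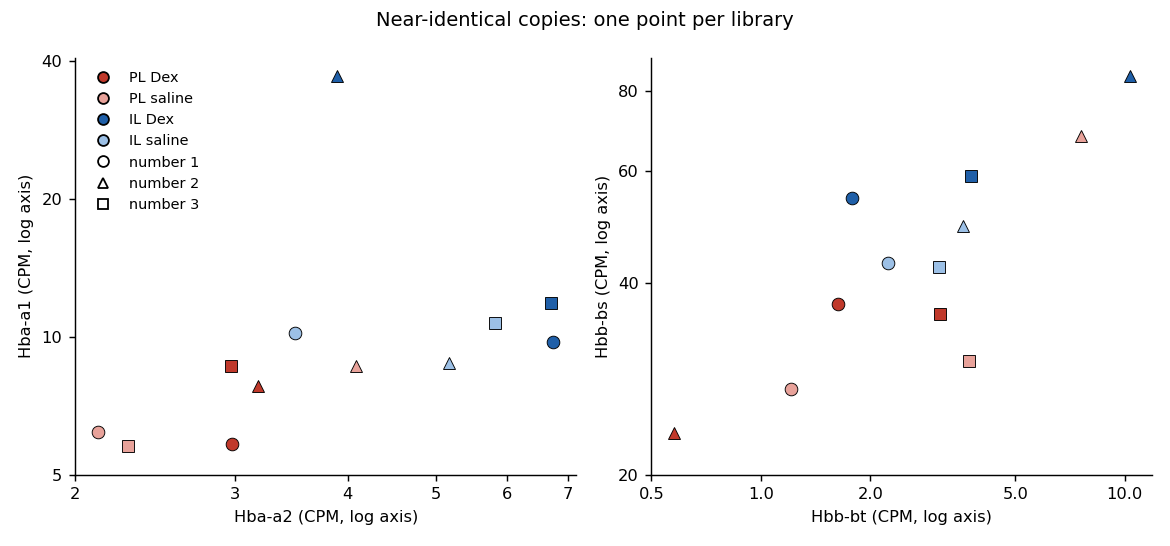
Levels of the alpha copies (left) and of the beta copies (right), in CPM on log axes, one point per library, with colours for the groups and shapes for the library number. IL Dex 2 lies at 37.1 CPM of Hba-a1 and 3.89 CPM of Hba-a2, away from the other alpha points, while for the beta copies r of log2 CPM was 0.817.

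Among the 10 pairs of genes, Hbb-bs and Hbb-bt had the highest correlation of log2 CPM over 12 libraries. Pearson's r was 0.817 (permutation p = 0.00129, adjusted over 10 pairs 0.0120) and Spearman's rho 0.727 (permutation p = 0.0100, adjusted 0.0362). Without PL Dex 2 and IL Dex 2, the libraries farthest from the median of Hbb-bs, r was 0.591 (permutation p = 0.0702), so the relation rests in part on those 2 libraries. On deviations from group means r was 0.845 (exact permutation within groups, p = 0.00849, adjusted 0.0849).

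For Hba-a1 and Hbb-bs, r was 0.737 (permutation p = 0.00241, adjusted 0.0120) and rho 0.699 (permutation p = 0.0145, adjusted 0.0362). On deviations from group means r was 0.510 (exact permutation within groups, adjusted p = 0.329). Without PL saline 3 and IL Dex 2, r was 0.580 (permutation p = 0.0782). The alpha copies had an r of 0.401 (permutation p = 0.205, adjusted 0.293) and a rho of 0.713 (permutation p = 0.0122, adjusted 0.0362), and r was 0.792 (permutation p = 0.00627) without PL saline 3 and IL Dex 2. On deviations from group means the alpha copies had an r of −0.37, the other direction (exact permutation within groups, adjusted p = 0.780). Leaving out IL Dex 2 alone, r was 0.831 for the alpha copies (adjusted permutation p = 0.0230), 0.746 for Hba-a2 with Hbb-bs (0.0330) and 0.628 for Hba-a1 with Hbb-bs (0.0752). In the pairs of Alas2 with each globin gene, r was 0.136 to 0.547 and none passed after adjustment (adjusted p 0.135 to 0.675, permutation). The libraries share their batch numbers, and the groups differ in depth, so the 12 points may not be independent.

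Levels were next read by the batch number of the labels, which equals the library number. None of the 5 genes passed the test of batch number, where 0.025% of all genes tested did (edgeR). Hbb-bt had an unadjusted p of 0.0248 (FDR 0.425, edgeR), and 9.77% of all genes had one under 0.05. DESeq2 called 0 of the 4 genes to which it gave an adjusted p, and 0.69% of all genes. With no filter on low counts, Hba-a1, Hbb-bs and Hbb-bt passed (FDR 0.0278, 0.0312 and 0.00177, edgeR), where 1.40% of 38950 genes did. Without PL Dex library 2, Hbb-bt passed (FDR 0.0332, edgeR).

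The library numbered 2 had the highest summed globin level in PL saline, IL Dex and IL saline, and the lowest in PL Dex. By number, the summed level over 4 libraries was 53.9 ± 15.4 CPM for number 1, 81.4 ± 42.5 for number 2 and 58.9 ± 16.9 for number 3 (SD, n = 4 each). Hbb-bt spread over 0.578 to 10.3 CPM among libraries numbered 2, and over 3.08 to 3.77 CPM among those numbered 3.

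**Figure D4:**
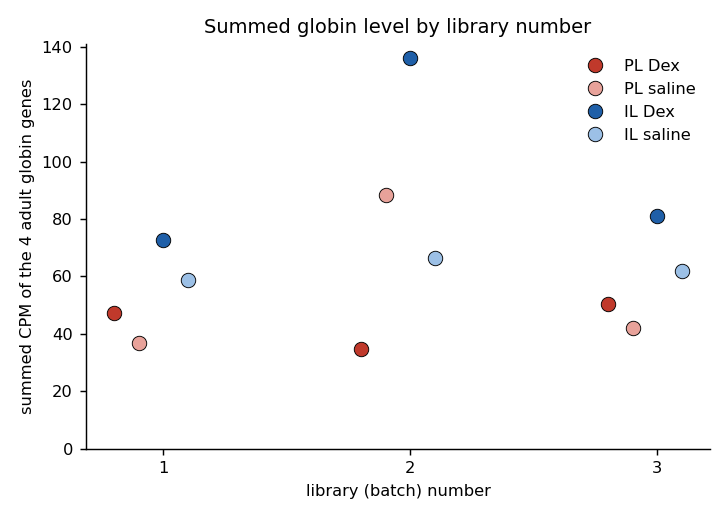
Summed level of Hba-a1, Hba-a2, Hbb-bs and Hbb-bt in CPM (vertical axis, from 0) against the library number, which is also the batch number; colours give the group. Number 2 holds both the highest value, 135.9 CPM in IL Dex, and the lowest, 34.9 CPM in PL Dex.

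Embryonic globin genes outside the tested set had counts in few libraries. Hba-x, the embryonic alpha chain gene, had 12 counts in PL Dex 3, 7 in PL saline 3 and 51 in IL saline 1. Hbb-bh1, an embryonic beta chain gene, had 18, 4 and 69 counts in these libraries, and Hbb-y, the other, had 33, 10 and 117. Together they made up 8.51, 2.53 and 21.2 CPM, and Hbb-y gave 47.6% to 52.4% of them. The other 9 libraries had 0 counts of all 3 genes, which allows each gene up to 3 counts, or 0.181 to 0.554 CPM by library. The libraries with these counts come from 3 groups and from the numbers 3, 3 and 1, so they do not coincide with 1 treatment, 1 region or 1 number. Their adult globin levels were 50.5, 42.0 and 58.9 CPM, and the highest adult levels, in IL Dex 2 and PL saline 2, came with no embryonic counts.

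**Figure D5:**
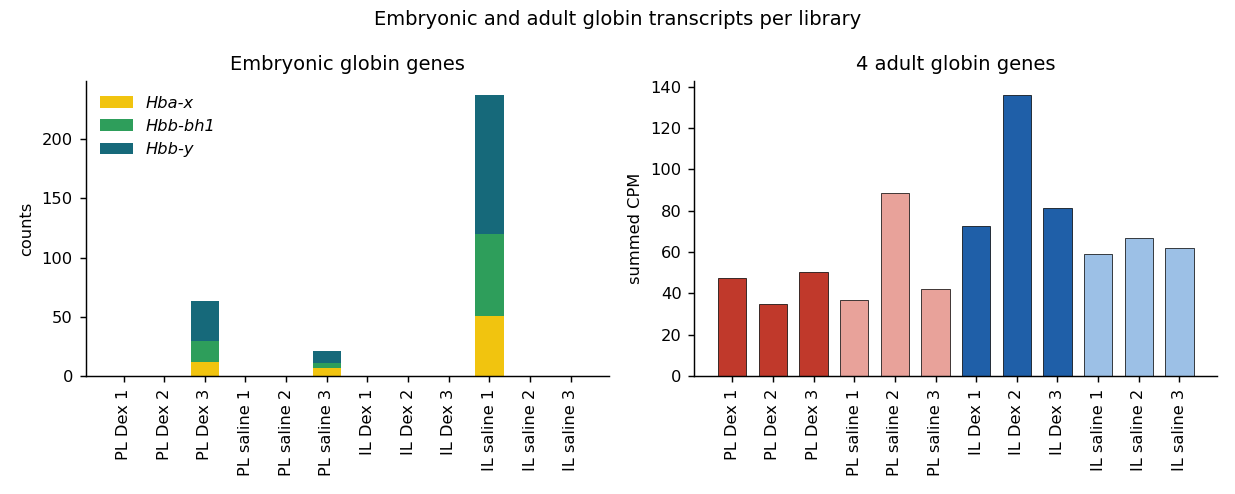
Left, counts of Hba-x, Hbb-bh1 and Hbb-y, stacked, in each of the 12 libraries; right, summed level of the 4 adult globin genes in CPM in the same libraries, both axes from 0. Embryonic counts stand in PL Dex 3 (63), PL saline 3 (21) and IL saline 1 (237) alone, while the adult genes are present in every library.

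Without these 3 libraries, none of the 5 genes passed the threshold in any of the 5 comparisons (edgeR). The share of all genes tested that passed was then 7.61% for Dex against saline in PL, 0% in IL, 0% in the interaction, 16% for PL against IL in saline mice and 5.16% in Dex mice. The log2 fold change, PL over IL in Dex mice, was then −1.52 for Hba-a1 (FDR 0.281), −0.91 for Hba-a2 (0.158) and −1.13 for Hbb-bs (0.253). For Dex over saline in PL it was −0.14 for Hba-a1 and −2.01 for Hbb-bt, and in the interaction −1.13 for Hba-a1, −1.19 for Hbb-bs and −2.67 for Hbb-bt.

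Other genes known from red cells ranged from 0 to well above the globin genes. Of the list of minor globins and the globin chaperone, 7 of 8 were in the table, 2 had no count in any library (Hbb-bh2 and Hbb-bh0) and none passed the filter. Of 26 genes of the red cell membrane and its enzymes, 15 passed the filter, and some of the rest were scarce. Slc4a1, the red cell anion exchanger, reached at most 0.467 CPM. Car1, the red cell carbonic anhydrase, had 1 count in all 12 libraries. Of the erythroid regulators, Gata1 had 2 counts in all, Gfi1b had 0 and Klf1 reached at most 0.888 CPM. Others of these lists had counts in all 12 libraries, with means of 3.13 CPM for Epor, the erythropoietin receptor, 1.79 CPM for Tal1, a regulator of blood formation, and 20.2 CPM for Zfpm1, a partner of GATA factors. These genes were named after their values were seen, and their part in the globin values was not tested.

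Heme synthesis, beyond its first erythroid step, was measured with all 8 listed genes. None passed in Dex against saline in either region, nor in the interaction (edgeR). Over all 6 lists of globin, red cell and heme genes, 42 genes were tested; for Dex against saline 5 of them in PL and 1 in IL had an unadjusted p under 0.05, with 4 in the interaction, where 13.9%, 1.06% and 6.73% of all genes did. In PL against IL in saline mice, 1 of the 8 heme synthesis genes passed, where 18.7% of all genes tested passed in either direction. It was Ppox, which makes protoporphyrin, at −0.70 ± 0.18 (log2, FDR 0.0113, edgeR), with means of 11.5 CPM in PL saline and 18.7 CPM in IL saline. Alas1, the housekeeping counterpart of Alas2, averaged 41.8 CPM and Fech, which inserts the iron, 54.7 CPM. The heme synthesis median was 0.15 for Dex over saline in PL and −0.06 in IL.

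Of the 15 tested genes of the red cell membrane and its enzymes, 3 were higher and 3 lower in PL than in IL in saline mice, and 1 was lower in Dex mice, where 18.7% and 7.34% of all genes passed in either direction. The list's median was 0.05 in saline mice and 0.01 in Dex mice, against −0.02 and −0.01 over all genes tested. Sptb and Tfrc are genes that brain cells also use. Sptb, a beta spectrin, was lower in PL in saline mice (log2 −0.53 ± 0.10, FDR 0.00105, edgeR) and in Dex mice (−0.41 ± 0.10, FDR 0.0115, edgeR). Tfrc, the transferrin receptor that brings in iron, was higher in PL saline, at 211.1 CPM, than in IL saline, at 135.8 CPM (log2 0.64 ± 0.14, FDR 0.00316, edgeR). Tspan33 was lower in PL saline than in IL saline (log2 −0.72 ± 0.19, FDR 0.0125, edgeR).

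Of 6 tested erythroid regulators, 2 were lower in PL than in IL in saline mice and 2 in Dex mice, and none was higher; 18.7% and 7.34% of all genes passed in either direction. Their median was −0.40 in saline mice and −0.24 in Dex mice, against −0.02 and −0.01 over all genes tested. Lmo2, a bridging factor of erythroid transcription complexes that endothelial cells also express, was lower in both (log2 −1.11 ± 0.23, FDR 0.00277 in saline mice; −0.99 ± 0.24, FDR 0.0152 in Dex mice, edgeR). Its means were 6.54 CPM in PL Dex and 13.1 CPM in IL Dex. Ldb1, its partner, was lower in saline mice (−0.35 ± 0.11, FDR 0.0341) and Bcl11a, a repressor of embryonic globin genes that neurons also express, in Dex mice (−0.37 ± 0.10, FDR 0.0337, edgeR).

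Of 11 tested genes of heme and hemoglobin clearance, none passed for Dex against saline, 2 were lower in PL than in IL in saline mice and 1 in Dex mice, with medians of −0.02 and 0.10. These counts lie near the 18.7% and 7.34% of all genes that passed in either direction. Cd163, the scavenger receptor with which macrophages take up hemoglobin bound to haptoglobin, was the gene called in both. It was at 5.56, 2.46 and 3.65 CPM in PL Dex, against 11.4, 11.5 and 8.73 CPM in IL Dex. The PL saline values were 6.05, 2.80 and 2.41 CPM, against 7.17, 7.44 and 7.47 CPM in IL saline. All PL libraries, at up to 6.05 CPM, were below all IL libraries, from 7.17 CPM. The share of all genes with this separation is not reported here. The log2 fold change was −1.42 ± 0.31 in Dex mice (FDR 0.00644) and −1.005 ± 0.31 in saline mice (FDR 0.0274, edgeR). Lrp1, a receptor for heme bound to hemopexin among much else, was lower in PL saline than in IL saline (−0.37 ± 0.12, FDR 0.0342, edgeR). The other globins, Cygb at a mean of 26.3 CPM and Ngb at 2.97 CPM, did not pass in any of the 5 comparisons.

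Markers of other blood and vessel cells were read beside the globin levels. The 10 neutrophil genes summed to 2.58 to 3.90 CPM in PL Dex, 2.57 to 11.7 in PL saline, 2.94 to 7.78 in IL Dex and 3.41 to 6.40 in IL saline, with Elane at 0 in all libraries and 2 of the 10 genes tested. The 10 genes of lymphocytes and blood monocytes summed to 0.542 to 0.945 CPM in PL Dex, 0.722 to 3.78 in PL saline, 0.551 to 1.07 in IL Dex and 0.474 to 0.986 in IL saline, and none was tested. Of the platelet list, Nrgn, also a neuronal gene, made up nearly all the level. Ppbp, Pf4, Gp9 and Treml1 reached at most 0.598, 0.620, 0.675 and 0.598 CPM. Gp1ba and Itga2b had counts in all 12 libraries, at means of 2.22 and 2.48 CPM.

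The 12 endothelial genes summed to 279.1 to 341.5 CPM in PL Dex, 283.5 to 310.3 in PL saline, 271.5 to 305.5 in IL Dex and 282.1 to 299.3 in IL saline. No endothelial gene passed in Dex mice, and 1, Slco1a4, was higher in PL than in IL in saline mice (log2 0.50 ± 0.15, FDR 0.0232, edgeR). The 10 mural genes summed to 215.2 to 254.7 CPM in PL Dex, 217.4 to 236.3 in PL saline, 217.9 to 250.5 in IL Dex and 230.2 to 242.7 in IL saline. Of 9 tested, Notch3, Cspg4 and Pdgfrb were lower in PL than in IL in saline mice (log2 −0.92 ± 0.21, −0.65 ± 0.16 and −0.55 ± 0.14, FDR 0.00434 to 0.00975, edgeR), where 18.7% of all genes passed in either direction, and none passed in Dex mice. The 11 genes of meninges and choroid plexus summed to 48.2 to 56.5 CPM in PL Dex, 30.8 to 54.6 in PL saline, 34.1 to 74.0 in IL Dex and 35.7 to 63.6 in IL saline. Their highest sum was in IL Dex 2, the library with the most globin. For PL over IL in Dex mice, the medians were 0.12 for endothelial, −0.10 for mural and 0.11 for meningeal and choroid plexus genes, against −1.04 for the 5 genes. In saline mice they were 0.00295, −0.32 and −0.62, against −0.11. The part of these cells in the globin values was not tested.

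By likeness to the mean log2 CPM of the 4 globin genes over 12 libraries, the 10 nearest of 14093 genes had an r of 0.858 to 0.899. They were Hist2h2ac, Pla2g16, Mccc1os, Calb1, Gmpr2, Cldn10, Slc22a3, Prdx6, Clic1 and Cst3. Each globin gene is part of that mean, which raises its own r, at 0.960 for Hbb-bs and 0.609 for Hba-a2. Alas2, which is not part of the mean, had 0.335, so these values are not compared. On deviations from group means, the nearest were Ier3, Hdlbp, Rnf43, Bgn, Ppp1r3b, Echs1, Uba2, Aldh6a1, Spp1 and Mcm6, with an r of 0.913 to 0.946, and Alas2 had −0.07. These are descriptions over 12 libraries that share groups and scaling, and no gene of the erythroid lists was among them.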

How the data were processed

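The deposited values are raw read counts for each gene, in whole numbers, with no normalization by the authors. Per the file headers they were made with featureCounts 2.0.1 on exons, in paired-end mode, with no strand or multi-mapping option, against the GRCm38 annotation of Ensembl release 98. The submitters' processing notes also name bcl2fastq, Trim Galore, HISAT2, SAMtools 1.8 and the build mm39; coordinates here are those of GRCm38. The table's 12 count columns that match no labelled sample were not used. Symbols came from the reference gene names, which named 55154 of 55421 identifiers.

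Counts were tested with edgeR 4.0.16 (quasi-likelihood, robust, TMM, filterByExpr, 4 groups, 8 residual degrees of freedom, R 4.3.3), two-sided, with Benjamini-Hochberg adjustment. DESeq2 1.42.0 was an alternative. The fit was tested on simulated data. Correlations used log2 CPM (prior count 2) with 100000 permutations, or all 1296 permutations within groups.

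The labels call the sample number a batch. Deviations from group means correlated at 0.28 to 0.34 between same-numbered IL Dex and IL saline libraries, at 0.01 to 0.11 between PL Dex and PL saline, and at −0.10 to 0.19 between regions.

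Named genes were the 5 genes everywhere, per list up to 4 called per comparison and the 2 of highest mean CPM, and the 10 nearest by r in each measure, at a mean of 1 CPM or more with no predicted name. The scarce erythroid markers, and the platelet markers other than Nrgn and Itga2b, were added after their values were seen. Some list genes that this rule names are not reported here. The genes and lists were chosen with earlier results of these data known. Sequences are from RefSeq (GRCm38.p6) and the GRCm38 annotation.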

Additional observations from a re-analysis of the deposited data

Results flagged for a closer look

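Signals outside the tested genes drew attention in 3 libraries. Counts of Hba-x, Hbb-bh1 and Hbb-y together were 63 in PL Dex 3, 21 in PL saline 3 and 237 in IL saline 1, above the limit of 3 counts that a count of 0 allows. They were 0 in every other library, the other 2 of each of those 3 groups and the 3 of IL Dex included. No sample outside the 4 groups was at hand, so the origin of these counts was not tested.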

How the results depend on the processing

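Other settings changed the number of the 5 genes called in PL against IL in Dex mice from 0 to 2 with DESeq2, and to 1 each with no low-count filter, with the replicate block, with only the groups compared and with copies summed; leaving out one library gave 0 to 1. Of all genes, 8.98% passed with DESeq2, 8.63% with the block and 7.36% with copies summed. For the other settings of this comparison, and for fits without one library, the share of all genes is not reported here. For batch number the count was 3 with no low-count filter and 0 to 1 when one library was left out. The replicate block changed no other call. Medians, leaving out one library, were −0.32 to 0.16 for Dex in PL, 0.14 to 0.67 for Dex in IL, −1.06 to −0.38 for the interaction and −0.64 to −0.0072 for PL against IL in saline mice. Some log2 fold changes changed sign. For Dex in PL, Hba-a1 was −0.12 with GC correction, −0.0796 with GC correction and block, −0.14 without the embryonic-count libraries and −0.0141 to 0.31 leaving out one; Hba-a2 was −0.14, −0.12, −0.0357 and −0.059 to 0.46; Hbb-bs was −0.60 to 0.16 leaving out one. For Dex in IL, Alas2 was 0.00443 with GC correction and block, 0.0644 without the embryonic-count libraries and −0.14 to 0.0637 leaving out one, and Hbb-bt was −0.0403 to 1.19. For the interaction, Hba-a2 was −0.38 to 0.21. In saline mice, Hbb-bs was 0.0852 with GC correction, 0.0297 with block too, 0.0651 without the embryonic-count libraries and −0.64 to 0.13 leaving out one, Hbb-bt was −0.23 to 0.91, and Alas2 was 0.00354 with GC correction and block and 0.0821 without the embryonic-count libraries. Leaving out one library, r was 0.63 to 0.82 for Hba-a1 with Hbb-bs, 0.31 to 0.83 for the alpha copies, 0.55 to 0.75 for Hba-a2 with Hbb-bs and −0.0278 to 0.28 for Hbb-bt with Alas2. Without PL saline library 1, r of Hba-a1 with Hbb-bs was 0.713 (adjusted permutation p = 0.0554). Leaving out one library, the mean summed globin level was 41.1 to 49.0 CPM in PL Dex, 39.4 to 65.2 in PL saline, 76.9 to 108.5 in IL Dex and 60.5 to 64.3 in IL saline. The cause of these shifts was not tested. Leaving out the embryonic-count libraries was chosen after seeing the data, and then 1513 of all genes passed for Dex in PL, against 4 with all libraries. Depth limits Hbb-bt most, at 4 to 69 counts per library.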

Other observations

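Genes with at least 10 counts and no predicted name were ranked by likeness to Hbb-y over the 12 libraries. This ranking was chosen after the values were seen. Nearest after Hba-x and Hbb-bh1 were Myl7, an atrial myosin light chain, and Mpo, the granule peroxidase of myeloid cells. Their r was 0.925 and 0.885 (n = 12), at 17 and 12 counts in all. The predicted gene Gm11168 was left out by its name. It had 5, 12 and 2 counts in PL Dex 3, PL saline 3 and IL saline 1, and 0 in the other 9 libraries. Myl7 was at 0.540 CPM in PL Dex 3, 0.120 in PL saline 3 and 0.807 in IL saline 1, and at 0 to 0.184 CPM in the other 9 libraries. Dbf4, which activates a kinase that starts DNA replication (r 0.846, 357 counts), and Lmod3, a muscle actin nucleator (r 0.824, 11 counts), came next. Dbf4 was at 4.46, 3.25 and 4.84 CPM in those libraries and at 2.31 to 3.33 CPM in the others. After these came H19, an imprinted RNA abundant before birth, which was at 0.405, 0.361 and 0.986 CPM in those libraries, and at 0 to 0.303 CPM in the others (r 0.818). Except for Dbf4, these levels rest on few counts each.

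Lcn2, of the neutrophil list, reached 9.26 CPM in PL saline 3 and was at 0.117 to 3.20 CPM in the other libraries. The other genes of that list were at 0 to 0.842 CPM in PL saline 3, and none of them had its highest level there. That library had 2.53 CPM of embryonic globins and 42.0 CPM of adult globins.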
